A study of Mus musculus with 6 samples.

Results

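The genes described here encode sialyltransferases and other Golgi glycosyltransferases, the enzymes that build and cap the sugar chains of glycoproteins and glycolipids. They were taken by symbol (St3gal, St6gal, St8sia, numbered Fut genes, B4galt, B3gnt, B3galt, Galnt, Mgat and Gcnt), from probe sets that carry a single gene symbol in the platform's annotation, with the brightest probe set by mean over all arrays standing for each gene. This gave 82 genes, 20 of them sialyltransferases, of 18193 genes with such a probe set. RNA was measured on Affymetrix mouse whole-genome arrays in S3 cells and S1 cells, which are classes of red cell precursors sorted from dissociated Balb/C fetal livers by the surface proteins CD71 and Ter119 after staining for other lineages. S3 is the more mature class and S1 the less mature one. Each has 3 arrays, from sorts on 3 separate days. No gene was altered and no agent was given in either group. The stage label gives embryonic day 13.5 for S3 and 12.5 for S1, whereas the source label gives 13.5 for all 6 arrays, so that a difference in embryo age between S3 and S1 cannot be told apart from the difference in maturation.

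Protein-linked sugar chains begin in the endoplasmic reticulum (N-glycans on asparagine) or in the Golgi (mucin-type O-glycans on serine and threonine), and lipid-linked chains begin with glucose on ceramide. Golgi enzymes then add N-acetylglucosamine, galactose and fucose stepwise from activated sugar nucleotides, and sialyltransferases finish many chains with a negatively charged sialic acid. The red cell surface is rich in sialic acid, much of it on O-glycans, and long poly-N-acetyllactosamine chains are carried by the anion exchanger band 3.

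Values are the authors' log2 signals. Array medians lay between 1.83 and 2.94, and the background of each array, set as the 95th percentile of 27 bacterial control probe sets, between 1.01 and 1.74. Signal at the 5' end of actin relative to its 3' end divided the arrays into a long class (S3 replicates 1 and 3, S1 replicate 3) and a short class (S3 replicate 2, S1 replicates 1 and 2), so both groups hold both classes, and a fit with the class as a block is given beside the plain fit. A principal component analysis of deviations from the group means parted these classes on its leading axis (65.03% of variance). Summed linear signals of 8 progenitor markers were 129 to 151 in S3 and 1720 to 1910 in S1, and those of 8 erythroid markers were 7120 to 9870 in S3 and 3460 to 5670 in S1. Of 6 tested progenitor markers 0 were higher and 5 lower, and of 8 tested erythroid markers 3 were higher and 0 lower. Among all tested genes 2.53% were called higher and 12.8% lower, and with the class block 5.81% and 41.2%. Megakaryocyte markers (7 genes, all tested) summed to 356 to 382 in S3 and 86.6 to 182 in S1, with 1 higher (Vwf) and 1 lower (Gp5), and with the class block 4 higher (Vwf, Pf4, Gp9 and Ppbp, all without overlap) and 1 lower. Macrophage markers (42.2 to 96.8 in S3, 34.1 to 123 in S1, with 10 genes, 6 tested, 0 called) overlapped between the groups. Of the 10, 2 (Cd68 and C1qb) read above background on all 6 arrays and 3 (Adgre1, C1qc and Cd5l) on none. Sums also overlapped for 9 granulocyte markers (12.9 to 148 in S3, 21.5 to 108 in S1; 4 tested, Prtn3 lower), 10 lymphoid markers (23.7 to 41.0 in S3, 23.5 to 44.0 in S1; 2 tested, 0 called), 8 hepatocyte markers (271 to 1010 in S3, 299 to 347 in S1; 8 tested, 0 called, but Ttr and Apoa2 higher without overlap and called with the class block) and 8 endothelial markers (12.3 to 23.4 in S3, 15.1 to 24.4 in S1; 3 tested, 0 called). The part of other cell types in the values below was not tested.

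Promoter sequence is shown for the genes with the smallest adjusted p for a lower signal among sialyltransferases (St8sia4) and among β3-N-acetylglucosaminyltransferases (B3gnt2), and for the gene called higher (St3gal5). Each is the 250 bases before the annotated start, 5′ to 3′ on the gene's own strand, from RefSeq (GRCm38.p6): chr1:95667595-95667844, minus strand, for St8sia4, chr11:22859736-22859985, minus strand, for B3gnt2, and chr6:72097358-72097607, plus strand, for St3gal5. Capitals mark matches, on either strand, to GATAA (a core of the GATA factor motif) or CCNCNCCC (a core of the KLF factor motif), and overlapping matches run together.
St8sia4: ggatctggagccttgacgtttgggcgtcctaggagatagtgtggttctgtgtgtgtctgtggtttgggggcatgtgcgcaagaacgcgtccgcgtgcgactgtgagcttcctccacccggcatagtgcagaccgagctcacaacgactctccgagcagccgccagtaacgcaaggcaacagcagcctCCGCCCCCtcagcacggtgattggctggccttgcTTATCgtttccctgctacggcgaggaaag
B3gnt2: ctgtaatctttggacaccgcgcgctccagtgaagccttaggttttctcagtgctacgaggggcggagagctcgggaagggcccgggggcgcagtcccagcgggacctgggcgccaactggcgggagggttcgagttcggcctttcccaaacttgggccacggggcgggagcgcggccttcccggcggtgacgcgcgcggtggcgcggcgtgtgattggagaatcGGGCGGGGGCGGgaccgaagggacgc
St3gal5: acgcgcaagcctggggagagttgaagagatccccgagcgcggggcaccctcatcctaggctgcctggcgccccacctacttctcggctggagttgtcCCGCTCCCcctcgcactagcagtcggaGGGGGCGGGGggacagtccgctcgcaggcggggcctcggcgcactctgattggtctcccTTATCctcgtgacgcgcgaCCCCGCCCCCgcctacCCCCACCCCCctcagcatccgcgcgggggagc

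St8sia4 held 1 GATAA and 1 CCNCNCCC match, B3gnt2 0 and 2, and St3gal5 1 and 7. Overlapping matches are counted apart here. Those of St3gal5 began 126 and 124, 48 and 46, and 32 and 30 bases before the start, and those of B3gnt2 26 and 22 bases before it. The first base of the GATAA match lay 29 bases before the start in St8sia4 and 67 bases before it in St3gal5. CpG dinucleotides numbered 19, 31 and 25 in St8sia4, B3gnt2 and St3gal5. RefSeq windows were at hand for 60 of the 82 genes. Of 11 windows of the 10 genes called lower in S3, 27.3% held GATAA and 81.8% CCNCNCCC, and of 49 windows of 33 tested genes 20.4% and 65.3%, beside 22.6% and 45.9% of all 32851 windows. Median CpG counts were 19 for genes lower in S3, 13 for tested genes of the set and 6 for all windows. All windows include those of genes too dim to be tested. Shares for all tested genes, or for all genes lower in S3, were not computed, and the differences in share were not tested. A match of letters is not a bound site.

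Of the 82 genes, 47 were bright enough to be tested (a log2 signal that averaged over 1.125, the 40th percentile of all probe sets other than controls), and 38 of these read above background on all 6 arrays. At an adjusted p under 0.05 (limma, Benjamini-Hochberg over all 11959 genes tested), 1 of the 47 was higher in S3 (2.13%), 10 were lower (21.3%) and 36 were not called, beside 2.53% higher and 12.8% lower among all tested genes. The median log2 change of the 47, S3 minus S1, was -0.34, and that of all tested genes was -0.33, so the middle of the set moved with the middle of the array. S3 and S1 arrays did not overlap for 5 higher and 15 lower genes of the set, beside 5.81% and 29.5% of all tested genes. With the class block, 5 were higher and 16 lower, beside 5.81% and 41.2%. The tested genes B3galt5, B4galt4, B4galt6, St6gal1 and St8sia4 (5 genes) passed the filter with one group mean at or under its level, and counts over tested genes are not counts over all 82. Among sialyltransferases 15 of 20 were tested, with 1 higher and 3 lower, and among the other enzymes 32 of 62 were tested, with 0 higher and 7 lower. Counts of single families and lists below are to be read beside the 2.53% higher and 12.8% lower of all tested genes. The arrays read pooled cells, so fewer cells of a kind and less RNA per cell cannot be told apart.

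**Figure D1:**
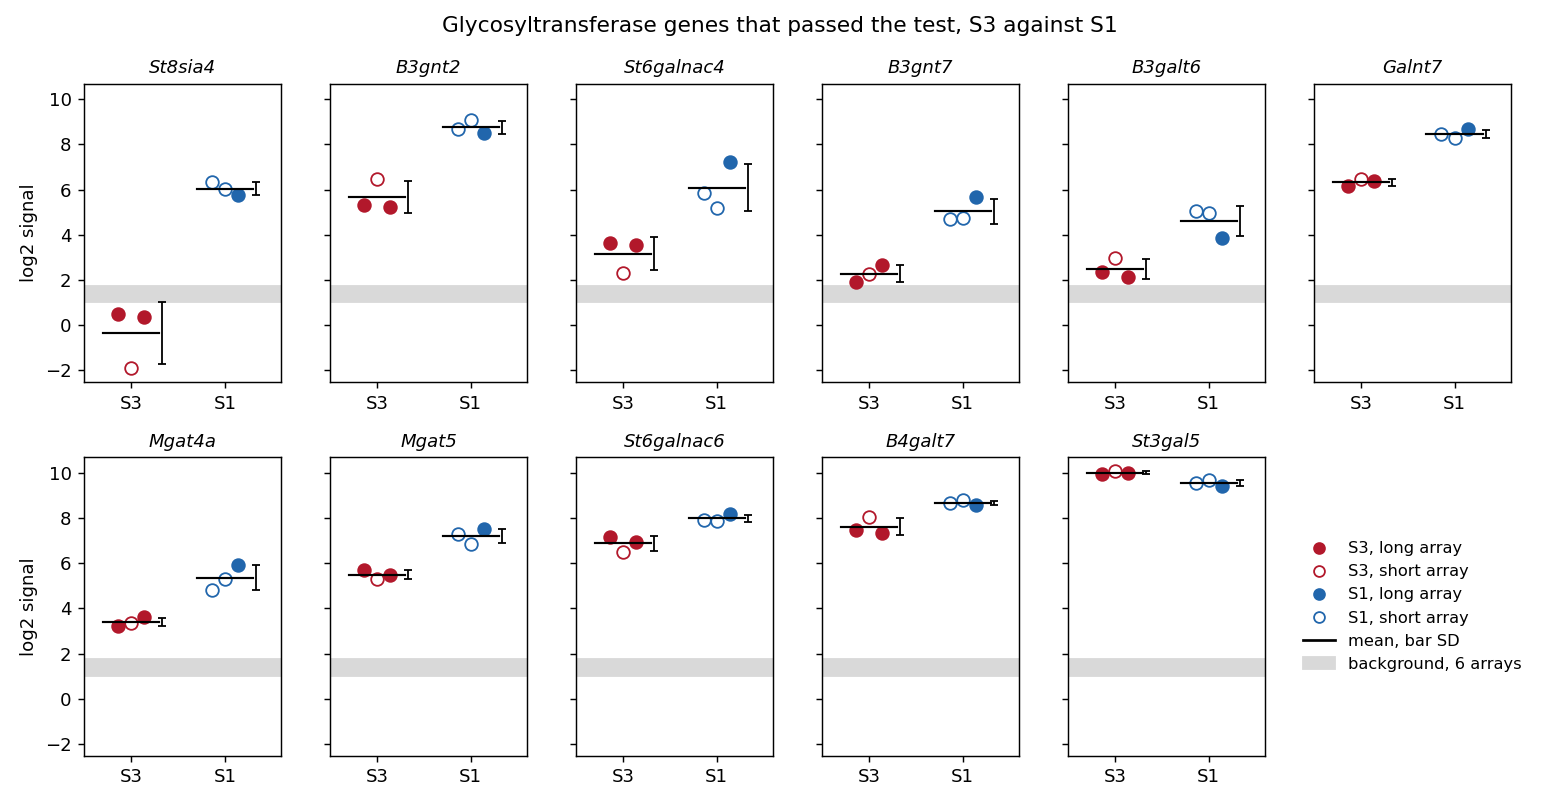
Log2 signal (vertical axis) on each array for the 11 genes called at an adjusted p under 0.05, with S3 left of S1 in each panel, filled circles for long and open circles for short arrays, a line at each mean, an SD bar beside it and a grey band at the range of background. In every panel the 3 S3 points lie to one side of the 3 S1 points, above them for St3gal5 and below them for the other 10.

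Polysialic acid is a long homopolymer of α2,8-linked sialic acid, made by St8sia4 and St8sia2 on a few carriers such as the adhesion molecule NCAM. St8sia4 read 0.49, -1.92 and 0.37 in S3, against 6.32, 6.02 and 5.77 in S1. All 3 S3 arrays were at or under background and all 3 S1 arrays far above it. The gene was at least 27.6-fold lower in S3, a bound with each dim S3 value raised to background (fitted log2 change -6.39 ± 0.71 (SE), adjusted p = 0.00315). Within the long arrays the log2 difference was -5.34 and within the short arrays -8.09, both resting on S3 values under background. St8sia2 was too dim to be tested, with means of 0.65 in S3 and 0.36 in S1, and was above background on 1 S3 array. The carrier gene Ncam1 averaged 1.66 ± 0.79 in S3 and 2.81 ± 0.18 in S1 (SD, n = 3 arrays each, as for all means below) and missed the threshold (log2 change -1.15 ± 0.54 (SE), adjusted p = 0.211). Of the other α2,8-sialyltransferases, St8sia3 averaged 2.84 in S3 and 2.77 in S1 and St8sia5 2.63 in S3 and 2.18 in S1, neither called, whereas St8sia1 (the GD3 ganglioside synthase) and St8sia6 were untested, each with means under 1 in both groups.

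The ST3Gal enzymes, which add α2,3-linked sialic acid to galactose, contained the gene called higher. St3gal5, the synthase of ganglioside GM3, read 9.95, 10.09 and 10 in S3, against 9.57, 9.68 and 9.41 in S1. Every S3 array lay above every S1 array, by a narrow margin. The log2 change was 0.46 ± 0.12 (SE), adjusted p = 0.0429, and it was 0.56 within the long and 0.47 within the short arrays. A dimmer probe set of St3gal5 changed by 1.02 ± 0.31 (SE), adjusted p = 0.0851 over probe sets. The call was lost in 12 of 20 other fits, among them those without any single one of the 6 arrays (highest adjusted p 0.255, with median centring).

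The other ST3Gal genes were all tested, and 0 were called in the plain fit. St3gal2, which sialylates O-glycans and gangliosides, read 8.17, 7.92 and 8.29 in S3, against 7.46, 7.24 and 7.55 in S1. The groups did not overlap, with S3 above S1. Its log2 change was 0.71 ± 0.25 (SE), adjusted p = 0.103, and with the class block 0.63, adjusted p = 0.00960. One dimmer probe set of St3gal2 was called over probe sets (1.62, adjusted p = 0.0327). St3gal3, an enzyme of N-glycan capping, lay the other way, at 6.04, 5.15 and 5.84 in S3, against 7.35, 6.69 and 6.94 in S1. The S3 arrays were all below the S1 arrays, with a log2 change of -1.31 ± 0.39 (SE), adjusted p = 0.0634, and with the class block -1.43, adjusted p = 0.00211. St3gal6 averaged 8.50 ± 0.09 in S3 and 8.51 ± 0.21 in S1, St3gal4 5.42 ± 0.10 in S3 and 4.62 ± 0.52 in S1, and St3gal1, the main sialyltransferase of core 1 O-glycans, 5.68 ± 1.23 in S3 and 4.64 ± 0.59 in S1. None of these was called in either fit, though the St3gal4 arrays did not overlap. With the class block and median centring together, St3gal4 (1.26, adjusted p = 0.00926) and St3gal1 (1.14, adjusted p = 0.0261) were higher. That fit called 1891 of 11959 genes higher.

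Of the ST6GalNAc genes, whose products add α2,6-linked sialic acid to N-acetylgalactosamine, 5 of 6 were tested and 2 were lower in S3. St6galnac4, which adds the second sialic acid to O-glycans already sialylated on galactose, read 3.62, 2.31 and 3.54 in S3, against 5.83, 5.20 and 7.22 in S1. The S3 arrays lay below all S1 arrays but still above background. Its log2 change was -2.93 ± 0.64 (SE), adjusted p = 0.0236, with -3.64 within the long and -3.20 within the short arrays, and a dimmer probe set was also called (-4.92, adjusted p = 0.00515 over probe sets). The call was lost in 3 of 20 other fits, those without S3 replicate 1, S3 replicate 3 or S1 replicate 1 (highest adjusted p 0.0755). St6galnac6, which acts on gangliosides, read 7.17, 6.52 and 6.96 in S3, against 7.90, 7.89 and 8.17 in S1. The groups did not overlap (log2 change -1.10 ± 0.29 (SE), adjusted p = 0.0443). The call was lost in 12 of 20 other fits, including those that left out any single array (highest adjusted p 0.156, with median centring). St6galnac4 and St6galnac6 lie on chromosome 2 with 0 protein-coding genes between them in RefSeq. Of the others, St6galnac1 (1.83 in S3, 2.36 in S1), St6galnac2 (5.65 in S3, 6.12 in S1) and St6galnac3 (5.70 in S3, 6.04 in S1) were not called, and St6galnac5 was untested. St6gal1, which caps N-glycans with α2,6-linked sialic acid, read 2.03, 0.86 and 1.90 in S3, against 0.86, 0.07 and 1.74 in S1, where no array was above background. The groups overlapped and it was not called, and St6gal2 was above background on no array.

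**Figure D2:**
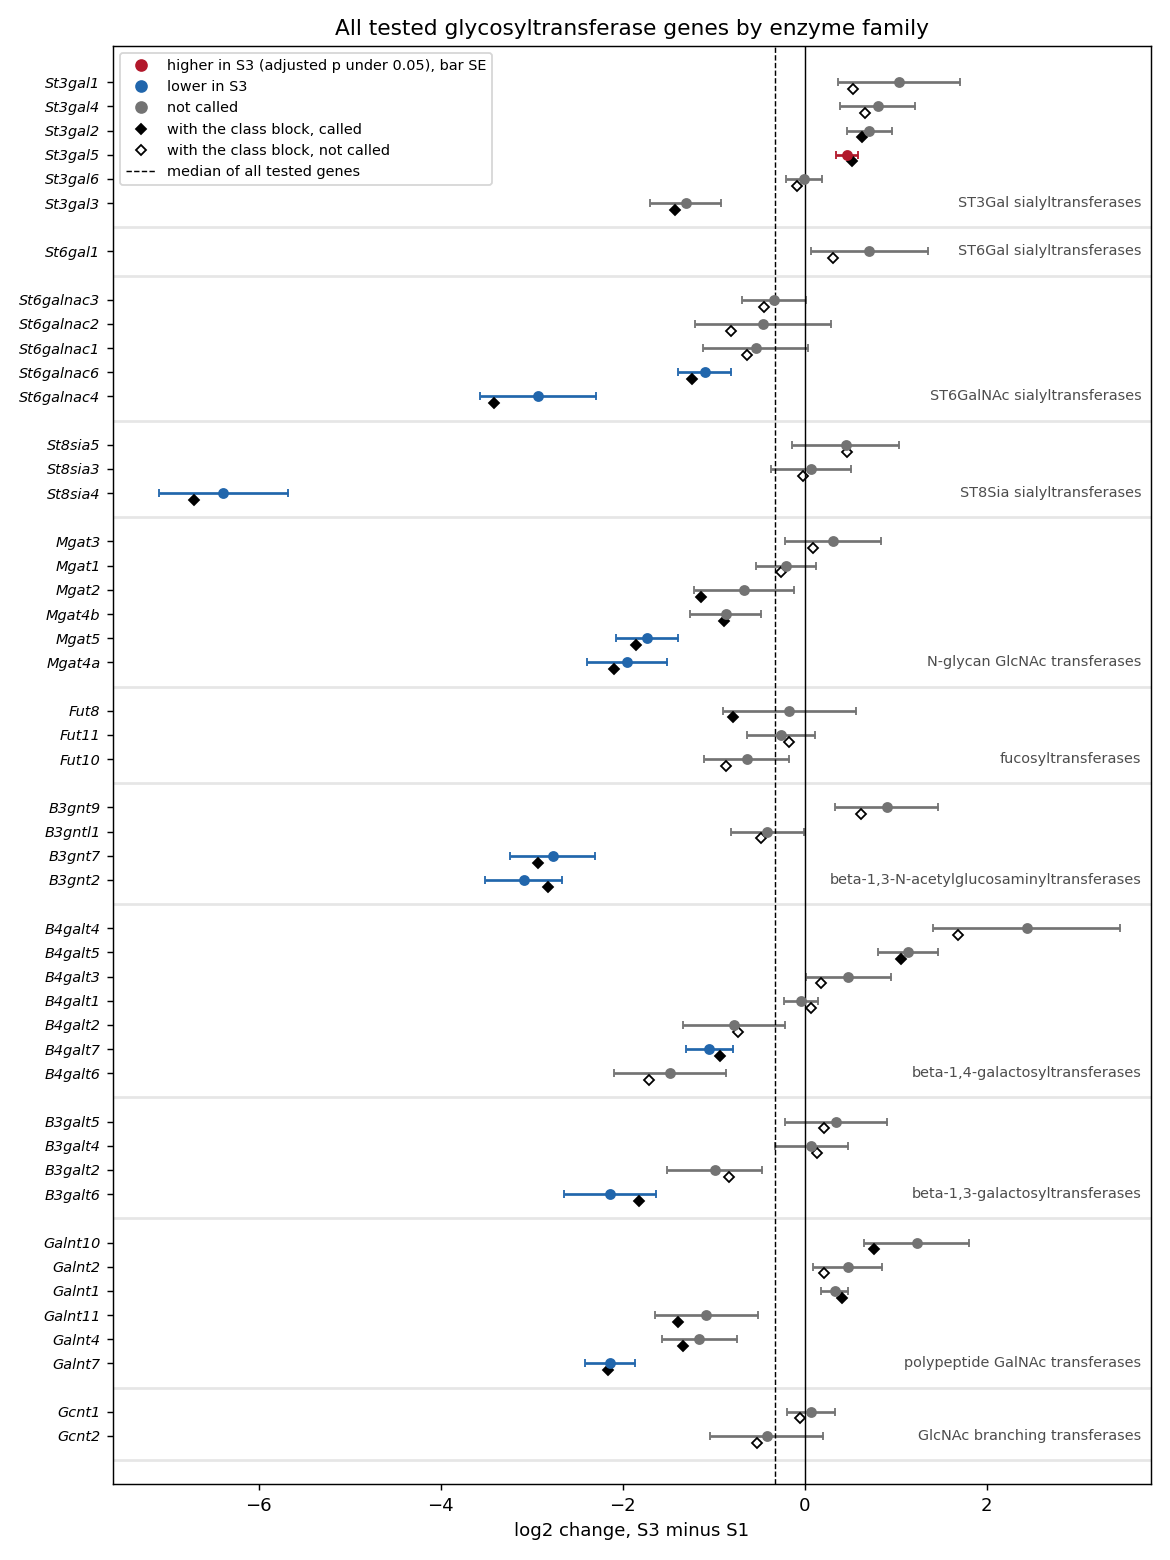
Log2 change, S3 minus S1, with SE for the 47 tested genes by enzyme family (red higher, blue lower, grey not called), diamonds for the fit with the class block and a dashed line at the median of all tested genes. St8sia4 lies farthest out at -6.39, and the ST3Gal genes are spread to both sides of 0.

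Of the enzymes that add N-acetylglucosamine to lengthen chains, 4 of 9 B3gnt genes were tested, with 2 lower in S3 (B3gnt2 and B3gnt7) and 0 higher, and of 7 tested B4galt genes, which add galactose, 1 was lower (B4galt7). B3gnt2, the main synthase of poly-N-acetyllactosamine, read 5.30, 6.48 and 5.22 in S3, against 8.70, 9.07 and 8.50 in S1. All S3 arrays lay well below all S1 arrays (log2 change -3.09 ± 0.42 (SE), adjusted p = 0.00491). It was -3.24 within the long and -2.40 within the short arrays, and a dimmer probe set changed by -1.64 (adjusted p = 0.225 over probe sets). B3gnt7, which extends keratan sulfate chains, read 1.90, 2.28 and 2.64 in S3, against 4.71, 4.72 and 5.69 in S1. Its groups were also apart, with S3 close to background (log2 change -2.77 ± 0.47 (SE), adjusted p = 0.0101). B4galt1, the main β1,4-galactosyltransferase of N-glycans, read 8.81, 9.33 and 8.96 in S3, against 9.13, 9.18 and 8.93 in S1. The groups overlapped fully and it was not called (adjusted p = 0.917). B3gnt9 and B3gntl1 were tested and not called, and B4galt2 and B4galt3, further β1,4-galactosyltransferases, were not called either. B4galt4 read 4.41, 0.98 and 3.02 in S3, against -1.11, 0.64 and 1.56 in S1, where no array was above background. Its groups overlapped, and S3 replicate 2 was itself under background, so no bound on the fold is given. B4galt4 was not called in the plain fit (adjusted p = 0.165) or with the class block (adjusted p = 0.0899). It was called with median centring (adjusted p = 0.0464) and with that and the block (adjusted p = 0.0268). Its log2 difference was 2.16 within the long and 1.21 within the short arrays. Gcnt2, which branches such chains to form the I blood group antigen, averaged 1.43 ± 0.61 in S3 and 1.85 ± 0.82 in S1 and was not called.

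B3gnt3, which extends core 1 O-glycans, was too dim on average to be tested. It read 3.47, 2.44 and 3.75 in S3, against -2.04, -0.69 and -0.77 in S1. Every S3 array was above background and no S1 array was, giving at least a 3.69-fold higher signal in S3. Fitted without the filter on dim probe sets, its log2 change was 4.38, adjusted p = 0.00880, a size that rests on S1 values under background. The same fit called Fut9 lower (-3.7, adjusted p = 0.0222), though Fut9 was above background on no array. B3gnt3 was the one untested gene of the set above background on every S3 array and no S1 array.

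In N-glycan branching, 2 of 6 tested Mgat genes (Mgat5 and Mgat4a) were lower in S3 and 0 were higher, and with the class block 4 were lower. Of all tested genes 12.8% were lower in the plain fit and 41.2% with the block. Mgat5, which starts the β1,6 branch, read 5.69, 5.29 and 5.48 in S3, against 7.28, 6.87 and 7.50 in S1. The groups did not overlap (log2 change -1.73 ± 0.34 (SE), adjusted p = 0.0175). Mgat4a, which starts the β1,4 branch, read 3.24, 3.36 and 3.61 in S3, against 4.83, 5.29 and 5.93 in S1. Its S3 arrays were also below all S1 arrays (log2 change -1.95 ± 0.44 (SE), adjusted p = 0.0252). The Mgat5 call was lost without S3 replicate 1, S3 replicate 3 or S1 replicate 1 and with the mean over its probe sets (adjusted p = 0.339), and the Mgat4a call in 6 of 20 other fits, those without any single array other than S3 replicate 2 and that with the mean over probe sets (highest adjusted p 0.102).

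Mgat4b, a second enzyme of the β1,4 branch, averaged 4.52 ± 0.32 in S3 and 5.39 ± 0.26 in S1 without overlap. It was called only with the class block (-0.89, adjusted p = 0.0422, against -0.87, adjusted p = 0.188). Mgat2, which prepares the second antenna, read 7.63, 6.32 and 7.62 in S3, against 7.22, 7.46 and 8.89 in S1. The groups overlapped over all 6 arrays, and within each class S3 lay below S1 (log2 change -0.67 ± 0.55 (SE), adjusted p = 0.508, and with the class block -1.14, adjusted p = 4.56e-04). Mgat1, which adds the first antennal sugar, averaged 6.02 ± 0.19 in S3 and 6.22 ± 0.17 in S1, and Mgat3, which adds the bisecting residue, 1.86 ± 0.25 in S3 and 1.55 ± 0.67 in S1. Neither was called. Fut8, which adds core fucose to N-glycans, read 6.88, 4.76 and 6.75 in S3, against 6.14, 5.37 and 7.39 in S1. Its plain log2 change of -0.17 (adjusted p = 0.918) turned to 0.16 with median centring, 0.19 with quantile normalization and 0.10 with a common trimmed mean, and with the class block it was -0.79, adjusted p = 0.0351.

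**Figure D3:**
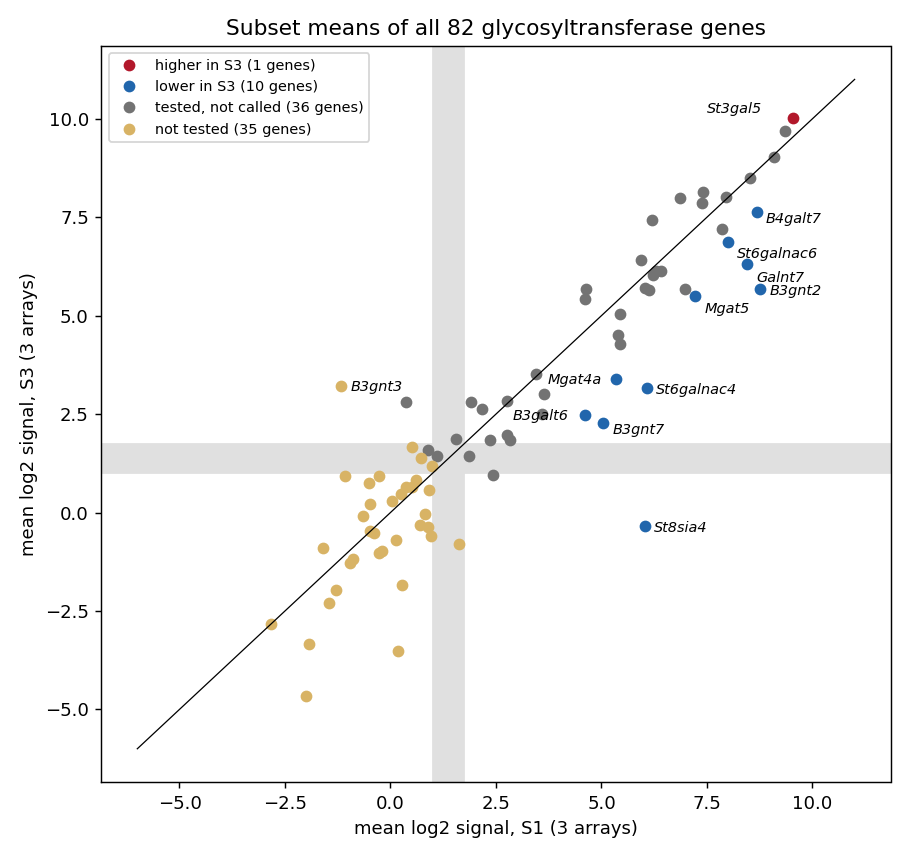
Mean log2 signal in S3 (vertical axis) against S1 (horizontal axis) for all 82 genes, 3 arrays each, with the line of equality and grey bands at the range of background over arrays. B3gnt3 is the untested gene far above the line, at 3.22 in S3 and -1.17 in S1, and St8sia4 the called gene far below it, at -0.35 in S3 and 6.03 in S1.

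Both enzymes that add galactose to the linker joining glycosaminoglycan chains to their core proteins were lower in S3. B4galt7, which adds the first galactose to xylose, read 7.47, 8.05 and 7.36 in S3, against 8.65, 8.79 and 8.60 in S1. The groups did not overlap (log2 change -1.05 ± 0.26 (SE), adjusted p = 0.0344). B3galt6, which adds the next galactose, read 2.33, 2.97 and 2.13 in S3, against 5.03, 4.96 and 3.85 in S1. These groups were apart as well (log2 change -2.14 ± 0.51 (SE), adjusted p = 0.0302), and dimmer probe sets of B3galt6 changed by -0.85 and -0.62 (adjusted p = 0.362 and 0.597 over probe sets). The B4galt7 call was lost in 12 of 20 other fits (highest adjusted p 0.363, with median centring), including those without any single array other than S3 replicate 2, and the B3galt6 call in 11 of 20 (highest adjusted p 0.154, with the mean over probe sets), including those without S3 replicate 1, S3 replicate 3, S1 replicate 1 or S1 replicate 2. The other tested β1,3-galactosyltransferases, B3galt2, B3galt4 (a ganglioside enzyme) and B3galt5, were not called.

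Mucin-type O-glycans are started by polypeptide GalNAc transferases, of which 6 of 18 were tested and 1 was lower. Galnt7, which prefers peptides that already carry a GalNAc, read 6.14, 6.46 and 6.36 in S3, against 8.46, 8.27 and 8.66 in S1. The values were tight within each group and well apart (log2 change -2.14 ± 0.27 (SE), adjusted p = 0.00447). Dimmer probe sets changed by -2.29 (adjusted p = 0.0125 over probe sets) and -1.90 (adjusted p = 0.0990). Galnt1, an initiating enzyme, read 9.49, 9.95 and 9.64 in S3, against 9.43, 9.35 and 9.30 in S1. Its arrays were narrowly apart with S3 higher (log2 change 0.33 ± 0.15 (SE), adjusted p = 0.207, and with the class block 0.41, adjusted p = 0.0140). Galnt10 averaged 7.42 ± 0.83 in S3 and 6.19 ± 0.87 in S1 (with the class block 0.76, adjusted p = 0.0247). Galnt4 averaged 4.27 ± 0.49 in S3 and 5.44 ± 0.15 in S1 (with the class block -1.34, adjusted p = 0.00482), and Galnt11 2.50 ± 0.91 in S3 and 3.58 ± 0.35 in S1 (with the class block -1.39, adjusted p = 0.0362). None of these 4 was called in the plain fit, where adjusted p ran from 0.104 to 0.267. Galnt2, another initiating enzyme, averaged 7.86 ± 0.44 in S3 and 7.39 ± 0.53 in S1 and was not called. Gcnt1, which makes the core 2 branch, read 7.99, 7.83 and 8.25 in S3, against 7.88, 7.73 and 8.24 in S1. These values overlapped closely and it was not called (adjusted p = 0.896).

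Along the ganglioside route, the opening glucosyltransferase and the GM2 synthase were lower in S3, beside the higher St3gal5 signal given above. Ugcg, which puts glucose on ceramide, read 9.12, 8.41 and 8.88 in S3, against 10.17, 10.18 and 10.31 in S1. The groups did not overlap (log2 change -1.42 ± 0.19 (SE), adjusted p = 0.00508). Of the enzymes that then add galactose, B4galt5 read 8.28, 7.77 and 7.96 in S3, against 7.26, 6.41 and 6.94 in S1, all S3 arrays being higher (log2 change 1.13 ± 0.33 (SE), adjusted p = 0.0576, and with the class block 1.06, adjusted p = 0.00503). A dimmer probe set of B4galt5 changed by 0.36 (adjusted p = 0.765 over probe sets), and the mean over its probe sets by 0.75 (adjusted p = 0.325). B4galt6 lay the other way, at 1.92, 0.68 and 0.24 in S3, against 2.20, 2.04 and 3.07 in S1, with only 1 S3 array above background. It was called in neither fit (log2 change -1.48 ± 0.62 (SE), adjusted p = 0.159, and with the class block adjusted p = 0.0583). B4galnt1, which converts GM3 to GM2, averaged 3.27 ± 0.45 in S3 and 5.41 ± 0.64 in S1 (log2 change -2.14 ± 0.49 (SE), adjusted p = 0.0270). The B4galnt1 call was lost without S3 replicate 1, S3 replicate 3, S1 replicate 1 or S1 replicate 3 (highest adjusted p 0.0964), and the Ugcg call with median centring (adjusted p = 0.0557) and with the mean over probe sets (adjusted p = 0.0847). The difference in change between these genes was not tested.

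The fucosyltransferases were mostly dim, with 3 of 9 tested and 0 called (limma, plain fit). Fut10 read 3.26, 2.56 and 3.17 in S3, against 3.13, 3.68 and 4.11 in S1, and Fut11 read 6.04, 6.37 and 6.0 in S3, against 6.06, 6.90 and 6.26 in S1. Both sets of values overlapped. Fut1 and Fut9 were above background on no array, Fut2 and Fut7 on 1, and Fut4 on 3. Fut1 and Fut2 make the H antigen, and Fut4, Fut7 and Fut9 add α1,3-linked fucose in Lewis structures. Fut4-ps1 is a pseudogene copy of Fut4, and cross-hybridisation between them was not tested. Of all 35 untested genes, 17 were above background on no array, 13 on 1 or 2 arrays and 5 on 3 or more, with group means between -4.65 and 3.22. The 17 were B3galt1, B3gnt4, B3gnt5, B3gnt8, Fut1, Fut9, Galnt3, Galnt5, Galnt12, Galnt13, Galnt15, Galntl5, Galntl6, Mgat4c, Mgat4d, Mgat4e and St6gal2. Besides genes named above, Galnt6 was above background on 2 S1 arrays and no S3 array, and B3gnt6, Galnt9, Galnt14, Galnt16, Galnt18, Gcnt3, Gcnt7 and Mgat5b on 1 to 3 arrays.

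Genes that supply these enzymes, act before them or carry their products were listed from textbook pathways, and 107 of 129 measured ones were tested, with 5 higher (4.67%) and 16 lower (15.0%) in S3 beside 2.53% and 12.8% of all tested genes. Sugar nucleotide synthesis held 18 tested genes, 1 higher and 1 lower. Cmas, which activates sialic acid as CMP-sialic acid, averaged 9.32 ± 0.07 in S3 and 8.05 ± 0.11 in S1 (log2 change 1.27 ± 0.17 (SE), adjusted p = 0.00512), whereas Gne, which opens sialic acid synthesis, averaged 5.34 ± 0.28 in S3 and 6.79 ± 0.18 in S1 (-1.46 ± 0.35, adjusted p = 0.0305). The Gne call was lost without any single one of the 6 arrays and in 3 further fits (highest adjusted p 0.201), and the Cmas call in none of 20. The enzymes between them were not called, Nans averaging 8.40 in S3 and 8.59 in S1, and Nanp 9.13 in S3 and 8.28 in S1. Of 10 nucleotide sugar transporters 1 was lower, Slc35a3, which carries UDP-N-acetylglucosamine into the Golgi (7.67 ± 0.14 in S3 and 9.50 ± 0.20 in S1, log2 change -1.83 ± 0.20 (SE), adjusted p = 0.00310). Slc35a1, the CMP-sialic acid transporter, was not called in the plain fit (log2 change -1.25 ± 0.37 (SE), adjusted p = 0.0634) and was lower with the class block (-1.36, adjusted p = 0.00193).

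**Figure D4:**
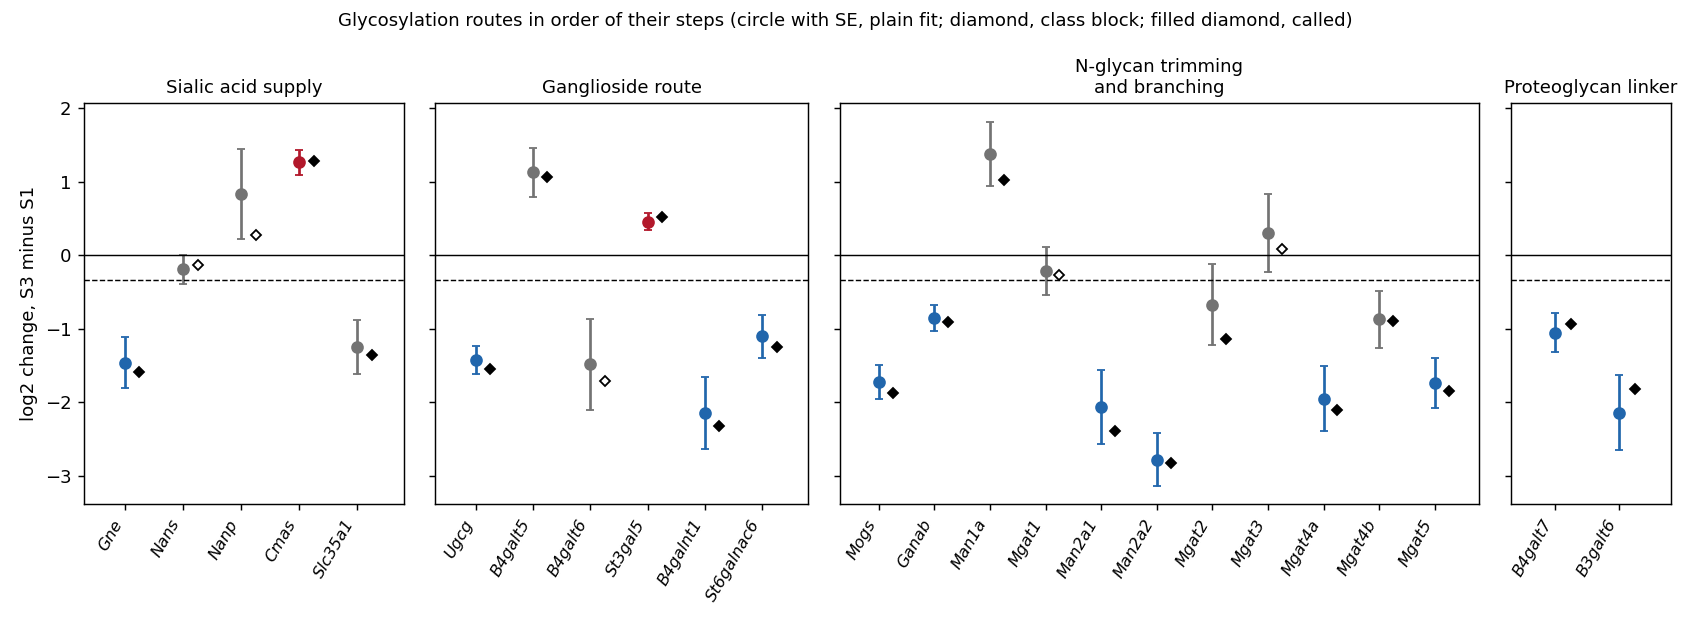
Log2 change, S3 minus S1, with SE along 4 routes, genes in the order of their steps (circles red higher, blue lower, grey not called; diamonds for the class block, filled where called; dashed line at the median of all tested genes). Steps of some routes differ in sign, as in sialic acid supply, where Gne lies at -1.46 and Cmas at 1.27. In the proteoglycan linker B4galt7 (-1.05) and B3galt6 (-2.14) are both lower. The mannosidase gene Man1a2 is not drawn.

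N-glycan transfer and trimming, steps that come before the Mgat enzymes or alternate with them, held 19 tested genes, 0 higher and 5 lower (26.3%, beside 12.8% of all tested genes). They were Rpn1, a subunit of oligosaccharyltransferase (log2 change -1.42 ± 0.16 (SE), adjusted p = 0.00331), Man2a2, a Golgi mannosidase that acts after Mgat1 (-2.78 ± 0.36, adjusted p = 0.00460), Mogs, the first trimming glucosidase (-1.72 ± 0.23, adjusted p = 0.00484), and, chosen after their values were seen, Ganab, the next glucosidase (-0.85 ± 0.18, adjusted p = 0.0223), and Man2a1, the paralog of Man2a2 (-2.06 ± 0.50, adjusted p = 0.0328). The calls of Ganab and Man2a1 were lost in 11 and 6 of 20 other fits, Ganab's without any single array other than S3 replicate 2 (adjusted p up to 0.652 over all fits, with the mean over probe sets) and Man2a1's without any single array (up to 0.104). Rpn1 lost its call with median centring (adjusted p = 0.129) and Man2a2 with the mean over probe sets (adjusted p = 0.131). The mannosidase gene Man1a was not called (8.22 ± 0.65 in S3 and 6.84 ± 0.58 in S1, log2 change 1.38 ± 0.44 (SE), adjusted p = 0.0787), but with the class block it was higher (1.03, adjusted p = 8.32e-04). Its paralog Man1a2, chosen after its values were seen, lay the other way (-0.82 ± 0.36, adjusted p = 0.187, and with the class block -1.05, adjusted p = 0.00104). With the class block 1 of the 19 genes was higher and 14 were lower, beside 5.81% and 41.2% of all tested genes. Other O-glycan and glycolipid enzymes had 0 higher and 4 lower of 13 tested (30.8%, beside 12.8% of all tested genes). Besides Ugcg and B4galnt1 these were Pomgnt1 (-2.06 ± 0.34, adjusted p = 0.00957), an enzyme of O-mannose chains, and, chosen after its values were seen, Mfng (-1.92 ± 0.50, adjusted p = 0.0402), which modifies O-fucose on Notch. Mfng lost its call in 11 of 20 other fits, among them those without any single array other than S3 replicate 2 (highest adjusted p 0.121), and Pomgnt1 without S1 replicate 1 (adjusted p = 0.0522). C1galt1, the core 1 galactosyltransferase, averaged 8.02 ± 0.64 in S3 and 7.75 ± 0.56 in S1 and its chaperone C1galt1c1 6.53 ± 0.95 in S3 and 6.41 ± 0.95 in S1. Neither was called.

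In the COG tethering complex, which keeps Golgi enzymes in place, 1 of 8 tested genes was lower (Cog3, log2 change -1.09 ± 0.23 (SE), adjusted p = 0.0222), and of 16 Golgi structure genes 1 was lower (Gorasp2, a stacking protein, -1.98 ± 0.33, adjusted p = 0.00947). With the class block 3 of 8 COG genes and 7 of 16 Golgi structure genes were lower, beside 12.8% of all tested genes in the plain fit and 41.2% with the block. Of 4 tested sialidases and esterases 0 were called (limma), the smallest p being that of Siae, a sialic acid esterase (-0.99 ± 0.36, adjusted p = 0.117, and with the class block adjusted p = 0.0108). Of 3 tested lectins Lgals9 was lower (-3.32 ± 0.67, adjusted p = 0.0183). Leaving out S1 replicate 1 ended the calls of Cog3, Gorasp2 and Lgals9 (adjusted p = 0.0637, 0.0519 and 0.0656). That of Lgals9 was also lost without S3 replicate 1, and that of Cog3 in 8 of 20 other fits, among them those without S3 replicate 1, S1 replicate 2 or S1 replicate 3 (highest adjusted p 0.191, with median centring).

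Sialylated carrier proteins were called in both directions, 4 higher and 2 lower of 16 tested, with a median log2 change of 0.02. The higher ones were Slc4a1 (band 3; 11.29 ± 0.07 in S3 and 8.84 ± 0.60 in S1, adjusted p = 0.00315), Gypc (glycophorin C; 9.87 ± 0.08 in S3 and 8.93 ± 0.13 in S1, adjusted p = 0.00630) and, chosen after their values were seen, Icam4 (9.78 ± 0.25 in S3 and 8.75 ± 0.10 in S1, adjusted p = 0.00988) and Cd24a (11.28 ± 0.02 in S3 and 10.98 ± 0.07 in S1, adjusted p = 0.0200). The lower ones were Cd44, the hyaluronan receptor (6.39 ± 0.07 in S3 and 9.25 ± 0.06 in S1, log2 change -2.86 ± 0.23 (SE), adjusted p = 0.00252), and Spn, the mucin-like leukosialin CD43 (6.19 ± 0.25 in S3 and 8.57 ± 0.62 in S1, -2.38 ± 0.38, adjusted p = 0.00811). The Cd24a call was lost in 9 of 20 other fits, among them those without S3 replicate 1, S3 replicate 3, S1 replicate 1 or S1 replicate 2 (highest adjusted p 0.431, with no intensity trend), that of Icam4 with median centring (0.0548) and that of Spn with the mean over probe sets (0.0589). Tfrc, which encodes CD71, averaged 10.86 ± 0.03 in S3 and 10.65 ± 0.16 in S1 and was not called (adjusted p = 0.200).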

How the data were processed

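RNA was amplified and biotin-labelled by the submitters, 1 array per sample, per the labels' protocols. Per the series' design text, the authors computed MAS5 signals and normalized them to 3 reference transcripts (18S, Gapdh, beta-actin). The deposited values are on a log2 scale, whose base was taken as 2 from their size. Of 45101 probe sets, 34945 carry 1 gene symbol, 932 several and 9160 none, beside 64 controls. The 82 genes have 171 probe sets, and 1 probe set naming B4galt2 among several symbols was left out.

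The S3 and S1 arrays were compared in limma 3.58.1 under R 4.3.3, with an intensity trend in eBayes, two-sided tests, Benjamini-Hochberg adjustment over 11959 genes and a threshold of 0.05. Residual degrees of freedom were 4 and prior ones 3.41, and 6 arrays limit the precision. The class block divides arrays at an actin 5' minus 3' log2 difference of -1.5. The code was tested on simulated data. Dimmer probe sets were adjusted over 22428 tested probe sets: 10 of them belong to 8 called genes, 10 have the same sign and 2 were called.

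The genes, lists, tests and background level were chosen with earlier results of these data known. Genes named with full values are the called ones, the brightest and the smallest p of each family, those called with the class block but not in the plain fit, up to 3 called genes of each related list and preset carriers; 1 preset gene is not reported here, and Ly76 was not analysed. Arrays of a group are from sorts on separate days, and no label says that a replicate number marks a shared day. Levels of different probe sets are not compared as results.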

Additional observations from a re-analysis of the deposited data

How the results depend on the processing

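St8sia4, B3gnt2, B3gnt7 and Galnt7 were called lower in every other fit made (19 for St8sia4, 20 for the others). St8sia4 was too dim for the 60th percentile filter, and its calls rest on S3 values at or under background. Over 49 genes and 973 values, 789 kept direction and side of the threshold, 128 lost and 50 gained a call, and 6 reversed, all of Fut8: to 0.16 with median centring, 0.19 with quantile normalization, 0.10 with a trimmed mean, 0.63 with the mean over probe sets, 0.52 without S3 replicate 2 and 0.38 without S1 replicate 3, with no cause tested (its values without 1 array ran from -0.64 to 0.52). Scaling moved the median log2 change of all genes from -0.33 to -0.00 (median centring), -0.07 (quantile) and -0.06 (trimmed mean), and their calls from 302 higher and 1533 lower to 555 and 841, 698 and 1125, and 616 and 1137. Calls among the 47 glycosyltransferase genes, 1 higher and 10 lower over 6 arrays, became 3 and 7 with median centring, 4 and 7 with quantile normalization and 3 and 8 with the trimmed mean. They were 2 and 9 with a 60th percentile filter (all genes 314 and 1493 of 8720) and 0 and 8 with no intensity trend (all genes 230 and 1251). With the mean over probe sets they were 0 and 5 (all genes 208 and 796 of 10922), and with the class block 5 and 16 (695 and 4922 of 11959). With that block and median centring they were 10 and 7 (all genes 1891 and 1825). The 10 were B4galt1, B4galt4, B4galt5, Galnt1, Galnt2, Galnt10, St3gal1, St3gal2, St3gal4 and St3gal5. In both fits with the class block the share of lower genes was not above that of all genes. With the replicate block the calls were 2 and 11 (all genes 412 and 1897), and B4galt5 (adjusted p = 0.0313), St3gal3 (0.0371), Man1a (0.0265) and Slc35a1 (0.0490) gained calls. The other fits include short arrays alone and long arrays alone, where a lone array is assumed to vary like the others. Deviations of same-numbered S3 and S1 arrays correlated at -0.192, 0.364 and 0.432 for numbers 1 to 3, and 4 of 6 arrays correlated best with their own number; number 1 joins a long and a short array, and the other numbers join arrays of one class, so pairing and class cannot be told apart here. Leaving out 1 array gave 0 higher and 4 to 9 lower, beside 119 to 370 higher and 541 to 1273 lower among all genes. There were 4 lower without S3 replicate 1, S3 replicate 3 or S1 replicate 1 and 6 without S1 replicate 2. Related genes, 5 higher and 16 lower, became 8 and 15 with quantile normalization, 8 and 16 with the trimmed mean, 8 and 51 with the class block, 15 and 23 with that block and median centring, 4 and 32 in short and 7 and 48 in long arrays alone, and 7 and 21 with the replicate block. Leaving out 1 array gave 4 to 7 higher and 7 to 15 lower related genes, with 9 lower without S3 replicate 1, 7 without S1 replicate 1 and 10 without S1 replicate 3. Signals near background, as in S3 for St8sia4 and in S1 for B3gnt3, have no order and bound a fold only from one side. Why the calls differ between scalings was not tested.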
